A study of Homo sapiens with 6 samples.

Results

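Notch receptors, their ligands and the HES and HEY repressors that they switch on were followed in 6 RNA sequencing libraries. By their labels, 3 had knockdown of cytokeratin 5 and 3 were controls. The group holds 10 genes, chosen by name from the 56505 rows of the count table: the receptors NOTCH1, NOTCH2, NOTCH3 and NOTCH4, the ligands JAG1, JAG2 and DLL1, and the effectors HES1, HEY1 and HEY2. Per the labels the cells were MDA-MB-468, an established human triple-negative breast cancer line of basal-like type, grown in medium with serum and given no other treatment. The 3 shControl libraries carried a control short hairpin RNA (pLK0-shControl). The 3 libraries titled shCK5-22, called shCK5 here, carried 1 hairpin against cytokeratin 5 (pLK0-shCK5-425222), so effects of that hairpin outside KRT5 cannot be told apart from loss of KRT5. Whether replicates were grown as separate cultures is not stated in the labels, and p-values therefore describe the spread among these 6 libraries, which may be technical.

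Notch signalling passes between touching cells. A ligand of the Jagged or Delta-like type on one cell pulls on a Notch receptor on its neighbour, an ADAM protease and then gamma-secretase cut the receptor, and the freed intracellular domain enters the nucleus. There it joins the DNA-binding protein RBPJ and a Mastermind coactivator and switches on target genes, among them HES and HEY repressors. In the mammary gland the pathway takes part in the choice between basal and luminal fate, and its receptors are known as oncogenes in some breast cancers.

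Each library held between 68810882 and 83594772 gene counts. KRT5, the targeted gene, stood at 2044 ± 23.3 CPM (counts for each 1000000 of the scaled library; SD, n = 3) in shControl and at 16.42 ± 0.845 CPM in shCK5. The 2 groups differed across most of the transcriptome, and 82.7% of the 19567 genes tested passed an adjusted p of 0.05, with 40.9% higher and 41.7% lower in shCK5. RB1 and SMAD4, which are known as deleted in this line, had 101.0 ± 2.16 and 16.86 ± 0.547 CPM in shCK5 against 1.996 ± 0.136 and 0.2346 ± 0.138 CPM in shControl. These levels go against the label of the shCK5 libraries as this line, because a knockdown does not restore a deleted gene. What cells the shCK5 libraries came from was not tested, and every fold change here is between libraries as labelled. A knockdown effect and a difference in the cells that made up the groups cannot be told apart, nor can fewer cells of a type and less RNA per cell. Of 10 general epithelial markers, 9 were lower and 1 (CLDN4) was higher in shCK5, and their summed level was 5448 to 5546 CPM in shControl and 1513 to 1545 CPM in shCK5. Of 8 basal epithelial markers, KRT5 included, 6 were lower and 2 higher, with summed levels of 6149 to 6325 CPM in shControl and 1221 to 1269 CPM in shCK5.

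All 10 Notch genes had reads and passed the filter on low counts. In shCK5, 4 of them were higher (NOTCH1, NOTCH2, NOTCH4 and JAG1), 5 were lower (NOTCH3, JAG2, HES1, HEY1 and HEY2) and DLL1 did not pass. So 9 of 10 passed, against 82.7% of all genes tested (quasi-likelihood test of edgeR, p-values adjusted by Benjamini-Hochberg over all genes). For the same 9 genes the groups were separate, with no shared range, against 84.2% of all genes tested (41.6% higher and 42.6% lower). The median log2 fold change (shCK5 minus shControl) was -0.78 over the 10 genes and -0.02 over all genes. Over 2-fold there were 1 higher and 4 lower genes, and 19.6% and 24.4% of all genes tested were past the same size in those directions. HEY2 passed the filter through the shControl libraries alone, where it is higher, so its place among the lower genes supports nothing further. DLL1 passed through 3 shControl and 2 shCK5 libraries.

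**Figure D1:**
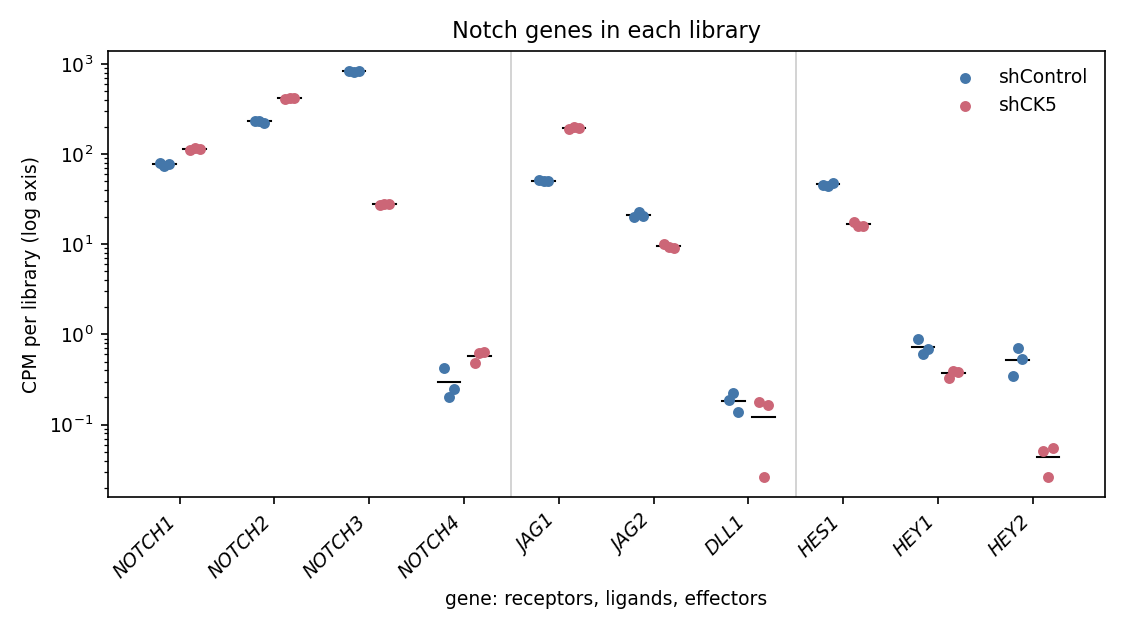
Level of each Notch gene in each library, in CPM on a log axis, with shControl in blue, shCK5 in red and a bar at the mean of 3 libraries. NOTCH3 drops from above 805 to below 28.2 CPM while NOTCH1, NOTCH2 and JAG1 rise, and the groups overlap for DLL1 alone.

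The receptors moved apart. NOTCH3 (ENSG00000074181.8, GRCh38 chromosome 19, 15159038 to 15200981, minus strand, protein-coding) is best known for its role in vascular smooth muscle and is also expressed in breast cancer cells. The shControl libraries had 832.0, 805.2 and 830.9 CPM, and the shCK5 libraries 27.16, 27.86 and 28.16 CPM. All 3 shCK5 libraries thus lay far below all shControl libraries, 29.7-fold lower in the mean. The log2 fold change was -4.89 (SE 0.0316, edgeR adjusted p = 1.79e-33). NOTCH3 stood at place 498 from the bottom of the 19567 tested genes by log2 fold change. In shControl 99.55% of tested genes had a lower CPM than NOTCH3, and in shCK5 67.19% did.

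NOTCH2 (ENSG00000134250.19, chromosome 1, 119911553 to 120069626, minus strand) is a broadly expressed receptor. It was read at 230.6, 235.3 and 222.6 CPM in shControl and at 403.7, 422.4 and 420.4 CPM in shCK5, so every shCK5 library was above every shControl library. The log2 fold change was 0.86 (SE 0.0281, edgeR adjusted p = 2e-19). Human NOTCH2 has near-identical partial copies, and reads may be split among them. Of these the table lists NOTCH2NL at 0 in all libraries and the pseudogene NOTCH2P1 with 4 counts, all in shCK5 replicate 1.

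NOTCH1 (ENSG00000148400.10, chromosome 9, 136494433 to 136545786, minus strand), the receptor mutated in T-cell leukaemia, rose by a smaller amount. It went from 79.76, 73.54 and 78.06 CPM to 112.1, 117.1 and 113.3 CPM, again with no overlap. This is 0.57 on the log2 scale (SE 0.033, edgeR adjusted p = 3.56e-14).

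NOTCH4, a receptor typical of endothelial cells, was rare in both groups. It gave 32, 16 and 18 counts in shControl and 38, 47 and 46 counts in shCK5, or 0.2936 ± 0.12 and 0.577 ± 0.0857 CPM. The highest shControl library (0.4295 CPM) lay just under the lowest shCK5 library (0.4787 CPM). The log2 fold change was 0.97 (SE 0.35, edgeR adjusted p = 0.0134), and without shControl replicate 2 it was 0.75 and did not pass (edgeR adjusted p = 0.0674). GPSM3, on the same strand, shares 98 exon bases (1.005%) with NOTCH4 and rose from 1.56 ± 0.328 to 34.29 ± 0.776 CPM; the part of its reads in the NOTCH4 counts was not tested. Of 8 endothelial markers, 7 were tested, of which 3 rose and 4 fell, against 40.9% higher and 41.7% lower among all genes tested. The summed level of the 8 markers was 5.378 to 7.121 CPM in shControl and 6.426 to 7.357 CPM in shCK5. The mean of PECAM1 went from 2.207 to 4.227 CPM, of KDR from 0.9181 to 1.684 CPM and of CLDN5 from 0.06248 to 0.335 CPM, as NOTCH4 also rose. CDH5, VWF, TEK and ERG fell, CDH5 from 1.296 to 0.03476 CPM in the mean. CDH5 and ERG passed the filter through shControl alone and CLDN5 through shCK5 alone. The part of endothelial cells in the level of NOTCH4 was not tested.

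Levels of different genes were compared per kilobase of merged exons, which removes the effect of length on the counts. On this scale NOTCH3 stood first of the receptors in shControl, at 87.58 ± 1.61 CPM per kilobase, followed by NOTCH2 at 13.66 ± 0.382, NOTCH1 at 7.432 ± 0.310 and NOTCH4 at 0.03012 ± 0.0123. In shCK5 the order was NOTCH2 at 24.72 ± 0.610, NOTCH1 at 11.0 ± 0.251, NOTCH3 at 2.951 ± 0.0548 and NOTCH4 at 0.05919 ± 0.00879 CPM per kilobase. Neighbours in each order differed by more than their SDs. The sum of the 4 receptors was 110.0, 106.8 and 109.2 CPM per kilobase in shControl and 37.76, 39.44 and 39 in shCK5, so the rise of NOTCH1 and NOTCH2 did not make up for the fall of NOTCH3 in this sum.

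Shares of the 4 receptors within a library do not depend on how libraries are scaled to each other. NOTCH3 took 80.5%, 80.24% and 80.96% of the receptor reads per kilobase in shControl and 7.656%, 7.518% and 7.688% in shCK5. For NOTCH2 the mean share was 12.57% ± 0.498 in shControl and 63.82% ± 0.284 in shCK5, and for NOTCH1 it was 6.836% ± 0.181 and 28.4% ± 0.350. The leading receptor transcript was therefore NOTCH3 in every shControl library and NOTCH2 in every shCK5 library. In counts per kilobase, NOTCH3 over NOTCH2 was 6.418 ± 0.279 in shControl and 0.1194 ± 0.00125 in shCK5. An exact permutation test, two-sided, gave p = 0.1 for each of the 7 receptor and ligand shares compared (adjusted p = 0.1), which is the smallest p that 3 libraries against 3 allow.

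**Figure D2:**
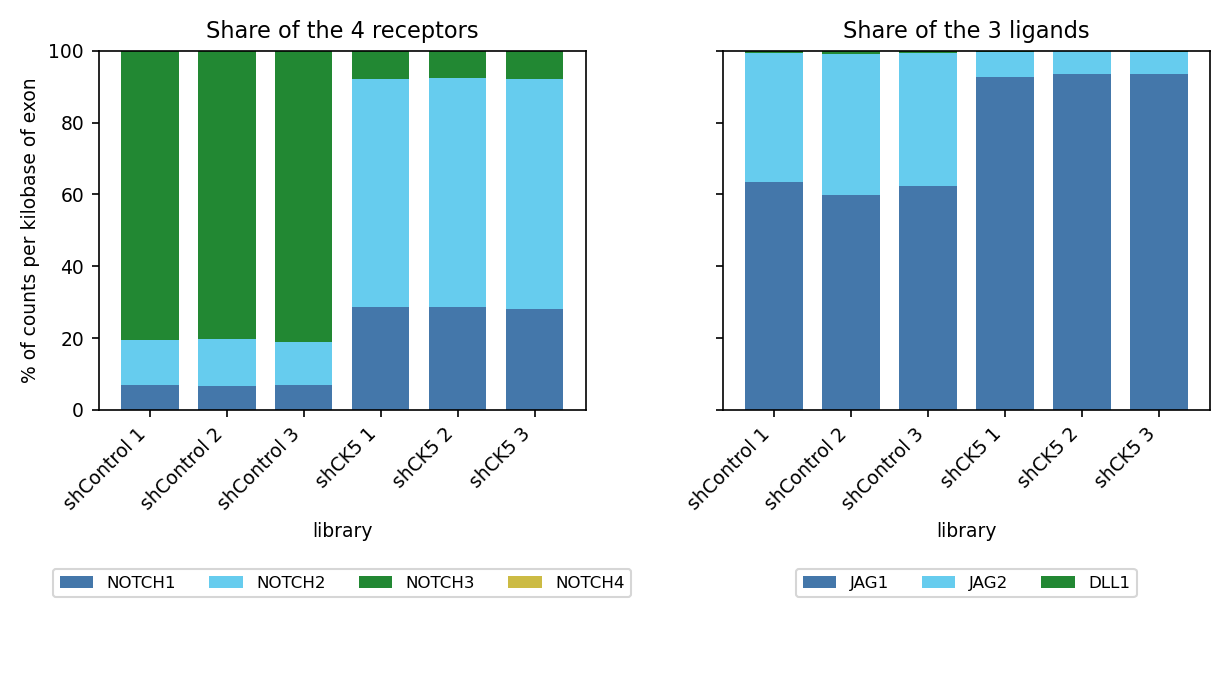
Share of each receptor (left) and each ligand (right) in every library, in percent of the counts per kilobase of exon of the 4 receptors or 3 ligands. NOTCH3 fills about 80.57% of the receptor bar in shControl and 7.621% in shCK5, and JAG1 goes from 61.82% to 93.21% of the ligand bar; NOTCH4 and DLL1 are too small to see in most bars.

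Of the ligands, JAG1 rose, JAG2 fell and DLL1 showed no difference that passed. JAG1 (ENSG00000101384.12, chromosome 20, 10637684 to 10673999, minus strand) encodes a Jagged ligand that is itself a Notch and Wnt responsive gene in several tissues. Reads of JAG1 made up 51.33, 49.71 and 49.94 CPM in shControl against 188.8, 199.3 and 195.8 CPM in shCK5, and the groups lay far apart. The mean was 3.87-fold higher (log2 fold change 1.95, SE 0.0311, edgeR adjusted p = 5.56e-26), the largest increase of the 10 genes.

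JAG2 (chromosome 14, 105140981 to 105168824, minus strand), the second Jagged ligand, went the other way. Its values were 20.07, 22.52 and 20.53 CPM in shControl and 10.06, 9.416 and 9.028 CPM in shCK5. All shCK5 libraries were lower, 2.21-fold in the mean (log2 fold change -1.15, SE 0.0635, edgeR adjusted p = 1.25e-14). An annotated neighbour on the same strand shares 7.332% of the exon bases of JAG2, and reads there cannot be assigned to one of them.

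DLL1, a Delta-like ligand, had 14, 18 and 10 counts in shControl and 14, 2 and 12 counts in shCK5. The groups overlapped, and the low mean of shCK5 came from replicate 2. Its log2 fold change was -0.59 with a 95% interval of -1.71 to 0.54 (edgeR adjusted p = 0.321), so a change in either direction could not be seen at this depth.

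JAG1 was also the leading ligand per kilobase, at 5.413 ± 0.0942 CPM per kilobase against 3.288 ± 0.204 for JAG2 and 0.05713 ± 0.0134 for DLL1 in shControl. In shCK5 these levels were 20.93 ± 0.575, 1.486 ± 0.0819 and 0.03808 ± 0.0260 CPM per kilobase. The ratio of JAG1 to JAG2 was 1.76, 1.519 and 1.674 in the shControl libraries and 12.91, 14.56 and 14.92 in the shCK5 libraries. The sum of the 3 ligands was 8.758 ± 0.161 CPM per kilobase in shControl and 22.46 ± 0.494 in shCK5, whereas the receptor sum was lower in shCK5.

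Of the effectors, HES1 and HEY1 fell, and HEY2 was lower on few counts. HES1 (ENSG00000114315.3, chromosome 3, 194136145 to 194138732, plus strand) encodes a basic helix-loop-helix repressor and is a classical direct target of Notch. It measured 45.64, 44.63 and 48.33 CPM in shControl but 17.86, 16.1 and 16.01 CPM in shCK5. The shCK5 libraries were all lower, 2.77-fold in the mean (log2 fold change -1.47, SE 0.049, edgeR adjusted p = 2.83e-19).

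HEY1 and HEY2 encode related repressors with known roles in heart and vessel development, and both were near the lower limit of detection. HEY1 gave 66, 48 and 50 counts in shControl and 26, 30 and 28 counts in shCK5, with no overlap in CPM (0.7281 ± 0.145 and 0.3694 ± 0.0364 CPM). Its log2 fold change was -0.98 (SE 0.295, edgeR adjusted p = 0.00403). HEY2 gave 26, 56 and 38 counts in shControl and 4, 2 and 4 counts in shCK5. Its shControl libraries differed among themselves by more than 2-fold in CPM (0.349 to 0.7021), yet the highest shCK5 library was at 0.0553 CPM. The log2 fold change of HEY2 was -3.54 (SE 0.501, edgeR adjusted p = 5.65e-07). HEY2 passed the filter on low counts through shControl alone, where it is higher, so its direction supports nothing further. Per kilobase HES1 led the effectors in both groups, with 22.4 ± 0.927 CPM per kilobase in shControl and 8.079 ± 0.506 in shCK5.

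The fall extended to every other HES gene that could be tested. Of 7 further HES and HEY genes, HES2, HES4 and HES7 passed the filter and all 3 fell, against 41.7% of all genes tested; HES5 and HEYL had too few counts, and HES3 and HES6 were listed at 0 in all libraries. HES4 was the more abundant of these, with 2349, 2932 and 2557 counts in shControl and 829, 830 and 656 in shCK5. Its mean went from 34.64 ± 2.75 to 10.13 ± 0.947 CPM (log2 fold change -1.77, SE 0.0651, edgeR adjusted p = 2.18e-18). HES7, a gene of the somite clock, had a log2 fold change of -1.80 (SE 0.215) and HES2 of -0.88 (SE 0.0674). These genes were chosen by name, and the list was not tested as a group.

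RBPJ, through which Notch acts on DNA, recognises a site with the core TGGGAA, so promoters were examined here. The 250 bases before the RefSeq start (GRCh38.p14) were searched for TGGGAA on both strands, which includes TTCCCA on the printed strand. Windows were given for 8 of the 10 genes, of which HES1 with 2 matches and HEY2 with 1 held the motif. The effector HEY1 and the ligand DLL1 had no window and were not searched. Of all 35116 such windows, 20.8% held at least 1 match and 2.9% at least 2. The HES1 stretch lies at chr3:194135898-194136137 on the plus strand and covers bases 250 to 11 before the start, with the matches in capitals.
HES1: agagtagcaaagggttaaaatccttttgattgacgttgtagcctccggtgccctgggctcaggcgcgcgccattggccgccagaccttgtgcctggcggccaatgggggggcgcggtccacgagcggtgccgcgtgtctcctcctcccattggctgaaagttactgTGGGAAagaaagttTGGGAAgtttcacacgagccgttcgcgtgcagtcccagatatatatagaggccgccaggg

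The 2 HES1 matches lie 84 to 79 and 70 to 65 bases before the start, on the same strand and 8 bases apart. HES4, the other HES gene that fell from a level above 30 CPM in every shControl library, held 1 match at 76 to 71 bases before the start. HEY2 held 1 match farther out, at 213 to 208 bases, on the opposite strand. The 30 bases around each match, read so that the motif runs forward, are printed for comparison of the flanks.
HES1, first match, chr3:194136052-194136081, plus strand: tgaaagttactgTGGGAAagaaagtttggg
HES1, second match, chr3:194136066-194136095, plus strand: ggaaagaaagttTGGGAAgtttcacacgag
HES4, chr1:1000156-1000185, minus strand: ctggggcgagtgTGGGAAagaatgcggagc
HEY2, chr6:125749407-125749436, minus strand: ccagccgaggcgTGGGAAcgcggccgcgga

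A match is a description of the letters and not a measured site. Across tested genes with a single window, 40.8% of 6650 genes with no match were lower in shCK5, against 43% of 1388 genes with 1 match and 41% of 212 genes with more. HES2, HES7 and NRARP, which also fell, held no match in their windows, and HEYL, which had too few counts to test, held 2.

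Among 4 further genes known to respond to Notch, NRARP and DTX1 fell, while CCND1 and CDKN1A rose. This split is near that of all genes tested (40.9% higher and 41.7% lower). NRARP encodes a feedback inhibitor induced by Notch and had 356, 351 and 317 counts in shControl and 134, 137 and 140 in shCK5. Its mean went from 4.532 ± 0.214 to 1.807 ± 0.124 CPM (log2 fold change -1.33, SE 0.121, edgeR adjusted p = 2.77e-10). DTX1, a Deltex ubiquitin ligase and Notch target, gave 36, 42 and 28 counts in shControl and 6, 0 and 0 in shCK5. It passed the filter on low counts through shControl alone, where it is higher, so its direction supports nothing further. Its log2 fold change was -4.07 (SE 0.643, edgeR adjusted p = 2.93e-06) and rested on shCK5 replicate 1, without which the fitted value was -8.13. CCND1, which encodes cyclin D1 and is controlled by many pathways, rose from 231.8 ± 8.73 to 790.1 ± 12.7 CPM (log2 fold change 1.77, SE 0.0287, edgeR adjusted p = 7.89e-26). CDKN1A, the p21 gene, rose by 0.22 on the log2 scale (edgeR adjusted p = 1.35e-05), and with libraries scaled by size alone it did not pass (0.08, edgeR adjusted p = 0.0641).

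Outside the 10 genes, 63 further genes of the pathway were listed, of which 57 were tested; 27 were higher and 22 lower in shCK5, and 8 did not pass. Their median log2 fold change was 0.01, and 49 of 57 passed, against 82.7% of all genes tested. With libraries scaled by size alone the split was 24 higher and 28 lower, so which direction held more genes changed with the scaling.

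**Figure D3:**
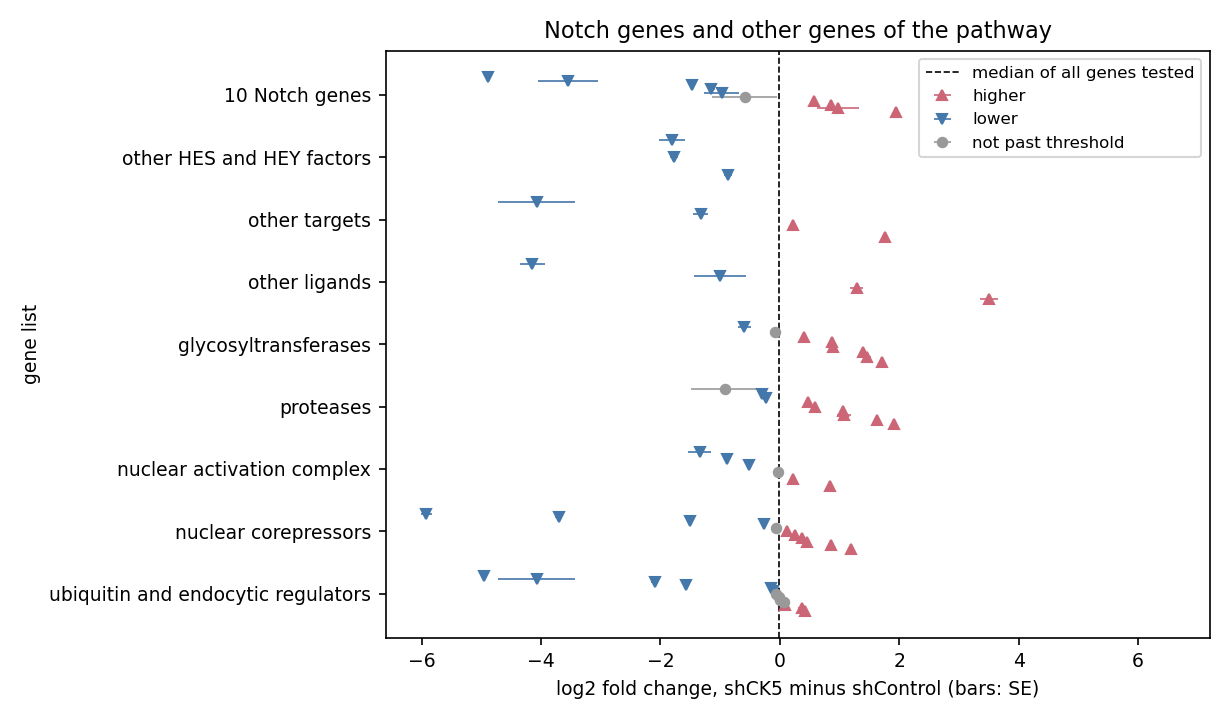
Log2 fold change (shCK5 minus shControl) of each tested gene by list, with SE bars, triangles for genes that passed the adjusted p of 0.05 and grey circles for those that did not; the dashed line marks the median of all genes tested, at -0.02. The other HES and HEY factors all lie left of the line, and most glycosyltransferases and proteases lie right of it.

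Further ligands were split. DLL3, a Delta-like protein that acts inside the cell as an inhibitor, fell from 254, 288 and 255 counts to 12, 16 and 17 counts (log2 fold change -4.15, SE 0.207, edgeR adjusted p = 1.41e-15). DNER, an atypical ligand first described in neurons, rose from 34, 62 and 44 counts to 568, 540 and 498 counts (log2 fold change 3.51, SE 0.145). DLK2, a non-canonical ligand, rose by 1.28 (SE 0.103) on the log2 scale. DLL4, the endothelial Delta-like ligand, had 14, 26 and 24 counts against 10, 12 and 10. Its call (log2 fold change -1.0, edgeR adjusted p = 0.0406) was lost under 8 alternative settings, DESeq2 among them (adjusted p = 0.0886). DLK1 was listed at 0.

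Most enzymes that put sugars on Notch receptors rose. Of 8 glycosyltransferase genes, 6 were higher, 1 (MFNG) was lower and POGLUT1 did not pass, against 40.9% higher and 41.7% lower among all genes tested; the median log2 fold change was 0.89. POFUT1, which adds the fucose that ligand binding depends on, rose from 69.93 ± 0.928 to 229.1 ± 4.6 CPM (log2 fold change 1.71, SE 0.029). The xylosyltransferase genes GXYLT2 and GXYLT1 had log2 fold changes of 1.46 and 1.40.

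Proteases that process the receptors also rose more often than they fell, with 6 of 9 higher, 2 lower and a median log2 fold change of 0.60, beside 40.9% higher, 41.7% lower and a median of -0.02 over all genes tested. FURIN, which cleaves the receptor precursor in the Golgi, rose from 42.1 ± 1.97 to 157.9 ± 1.53 CPM (log2 fold change 1.91, SE 0.0337). Among gamma-secretase subunits, NCSTN (nicastrin) rose by 1.62, APH1B by 1.07, APH1A by 0.60 and PSEN2 by 0.48 on the log2 scale. PSENEN had between 3 and 21 counts per library and did not pass; 56.5% of its exon bases are shared with other annotated genes, so its level is uncertain.

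In the nucleus, RBPJ rose from 65.11 ± 2.12 to 116.9 ± 2.49 CPM (log2 fold change 0.84, SE 0.0321, edgeR adjusted p = 4.55e-18). Of the 6 tested genes of the activation complex, 2 rose, 3 fell and MAML1 did not pass, a split near that of all genes tested (40.9% higher and 41.7% lower). MAML3, a Mastermind coactivator, had a log2 fold change of -1.35 (SE 0.195), and EP300, a histone acetyltransferase recruited to the complex, of -0.89 (SE 0.0336).

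Corepressors moved both ways, with 6 of 11 higher and 4 lower (5 and 5 with libraries scaled by size alone), near the 40.9% and 41.7% of all genes tested. Transcripts of the Groucho family, which HES proteins recruit to silence genes, showed large differences. TLE2 had 3502, 3534 and 3407 counts in shControl and 46, 70 and 58 counts in shCK5, a 60.4-fold lower mean CPM (log2 fold change -5.92, SE 0.0856, edgeR adjusted p = 7.44e-27). TLE4 fell from 52.4 ± 1.52 to 4.02 ± 0.332 CPM and TLE3 from 274.8 ± 7.24 to 97.21 ± 2.45 CPM. TLE1 went up, from 79.62 to 182.4 CPM in the mean (log2 fold change 1.20; chosen after its values were seen).

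Of 13 ubiquitin ligases and endocytic regulators, 3 rose, 6 fell (DTX1 among them) and 4 did not pass, and the share lower was near the 41.7% of all genes tested. With libraries scaled by size alone, 2 rose and 9 fell. The Deltex gene DTX4 fell from 10776, 11313 and 10423 counts to 360, 366 and 326 counts. Its log2 fold change, -4.96 (SE 0.0427, edgeR adjusted p = 3.29e-31), was close in size to that of NOTCH3. NEURL1, which encodes a ligase that drives ligand endocytosis, had a log2 fold change of -2.09 (SE 0.0591). NUMB and NUMBL, inhibitors of Notch, did not pass, with log2 fold changes of -0.06 and 0.01 (chosen after their values were seen).

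Position on the chromosome was examined because neighbouring genes can change together. Of all genes tested, 40.9% were higher and 41.7% lower in shCK5, with a median log2 fold change of -0.02. Within 500 kb of the start of NOTCH3, 18 other genes were tested, of which 5 were higher and 8 lower, with a median log2 fold change of -0.16. Nearby genes went in opposite directions: CASP14, an epidermal caspase, fell from 543.4 ± 33.0 to 9.407 ± 0.845 CPM, while SYDE1 rose from 8.199 ± 0.625 to 157.8 ± 2.83 CPM (both chosen after their values were seen). Around NOTCH1, 18 of 26 tested genes were higher and 3 lower, with a median of 0.92, above the 0.57 of NOTCH1 itself. All 4 tested genes around HEY2 were lower (median -1.21), as was the 1 tested gene around HEY1. With 4 genes and 1 gene, these counts are too small to be read as a shared change. Around NOTCH4 17 of 36 were higher and 15 lower, around JAG2 6 of 18 higher and 10 lower, around NOTCH2 3 of 7 higher and 1 lower, around JAG1 2 of 3 higher and 1 lower, and around DLL1 4 of 5 higher and 1 lower. Around HES1, 5 of 9 were higher and 4 lower. The 4 lower ones, all long noncoding RNAs (LINC02028, LINC02036, LINC02048 and LINC00887), lay nearest to HES1. Each had a shCK5 mean under the 0.1325 CPM minimum of the filter and was tested because it is higher in shControl, so their direction supports nothing. LINC00887 dropped from 2.876 ± 0.508 to 0.1184 ± 0.0679 CPM, and LINC02036 had no count in shCK5. Other neighbours that were counted also had a group mean under that minimum. It was the shControl mean for HCG23, C6orf10, BTNL2, HLA-DRA, HLA-DRB5 and HLA-DRB1 near NOTCH4. The same held for LHX3 near NOTCH1, GPR132 and TMEM121 near JAG2 and LRRC15 near HES1. It was the shCK5 mean for CYP4F23P, RASAL3 and OR7A5 near NOTCH3, LCN12 near NOTCH1 and RPS26P49 near JAG2. Their directions support nothing either.

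**Figure D4:**
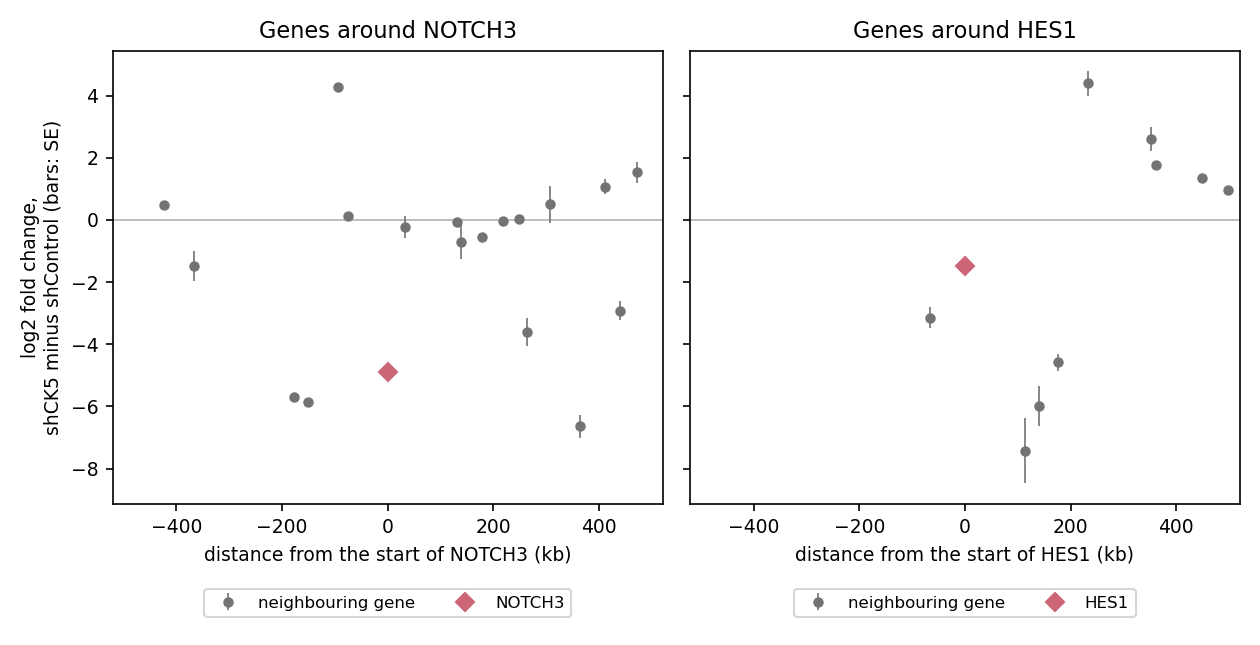
Log2 fold change (shCK5 minus shControl, SE bars) of tested genes by distance of their start from the start of NOTCH3 (left) and of HES1 (right), in kb. Genes near NOTCH3 lie on both sides of 0, and the lowest point near HES1 is LINC02036, which has no count in shCK5, so that its position depends on the fit.

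The transcripts most like NOTCH3 across the 6 libraries were ZFP42, AZGP1 and MAGEA3. Likeness was the root mean square distance between log2 CPM profiles after subtracting each gene's mean, and it was 0.029, 0.0395 and 0.0451 for these genes. With 2 groups of close replicates, such a distance mainly finds genes with the same fold change. ZFP42 went from 56.59 ± 0.551 to 1.886 ± 0.00504 CPM, AZGP1 from 421.1 ± 24.1 to 13.76 ± 0.307 CPM and MAGEA3 from 294.6 ± 2.82 to 10.43 ± 0.136 CPM.

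NOTCH3 and JAG1 are also expressed by stromal cells, so markers of other cell types are given beside them. Of 10 fibroblast and mesenchymal markers, 4 were tested, with 2 higher (VIM and PDGFRB) and 2 lower (COL1A1 and FAP) in shCK5. Among all genes tested 40.9% were higher and 41.7% lower. The summed level of the list was 25.71 to 27.68 CPM in shControl and 988.1 to 1012 CPM in shCK5, of which VIM made up 987.2 CPM in the mean. The mean of COL1A1 went from 12.86 CPM in shControl to 8.702 CPM in shCK5, and of FAP from 6.041 to 0.253 CPM. PDGFRB went from 0.4763 to 4.36 CPM in the mean. Among defining fibroblast genes, THY1 was listed at 0 in all libraries, and DCN, LUM, COL1A2 and PDGFRA each had means below 0.15 CPM. Leukocyte markers summed to 5.679 to 6.953 CPM in shControl and 1.364 to 1.713 CPM in shCK5. Of 3 tested members 2 were lower, against 41.7% of all genes tested. PTPRC, 1 of these, passed the filter through shControl alone, where it is higher, so its direction supports nothing. CD68 and NKG7 were among those at 0, and 85.79% of the exon bases of CD68 are shared with other annotated genes. A value of 0 was not read as lack of expression. The part of these differences in the values of the Notch genes was not tested.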

How the data were processed

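RNA from 6 libraries was analysed, 3 per group, grouped by sample title. The authors deposited raw, unnormalized read counts per gene name. Tools in the submitters' processing notes are STAR, cutadapt, Cufflinks and SAMtools, with build GRCh38; counting program, strand setting and annotation: not given in the sources used here. Of the 60 counts of the 10 genes 46 were even, and of all counts above 20 in a library 63.08% to 65% were; whether both mates of a fragment were counted was not tested. Counts were tested in R 4.3.3 with edgeR 4.0.16: filterByExpr (minimum count 10), TMM scaling (factors 1.043 to 1.056 in shControl, 0.9499 to 0.9587 in shCK5), glmQLFit and glmQLFTest with group alone, Benjamini-Hochberg over 19567 genes, threshold 0.05. CPM are counts per 1000000 of the TMM-scaled library size; errors are SDs over 3 libraries. The SE is the log2 fold change divided by the root of the F statistic. The fit was tested on simulated data. Exon lengths and coordinates are from GENCODE v29 on GRCh38, which may not be the authors' annotation, and promoters from RefSeq (GRCh38.p14). Alternatives were DESeq2 1.42.0, other scalings and filters, a replicate block and leaving out each library. The 10 genes and all lists were chosen with earlier results of these data known. Of the other pathway genes, those named were all in lists of up to 5 tested genes, the 3 largest changes in longer lists, RBPJ and gamma-secretase subunits; others are marked where named. Some listed genes are not reported here by name.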

Additional observations from a re-analysis of the deposited data

How the results depend on the processing

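Directions of the 46 single genes that were tried held in all 591 values under 13 alternatives, and in 10 values a call was lost: 8 of DLL4, 1 of NOTCH4 and 1 of CDKN1A. Calls among the 10 Notch genes numbered 9 throughout, except 8 without shControl replicate 2 and 6 with a filter of 1 CPM in 3 libraries, which leaves NOTCH4, DLL1, HEY1 and HEY2 untested and so gives 3 lower genes in place of 5. The log2 fold change of NOTCH3 ranged from -5.03 to -4.86, of JAG1 from 1.82 to 1.99, of HES1 from -1.61 to -1.43 and of HEY2 from -3.76 to -3.27. DLL1 ranged from -0.94 to -0.10 when 1 library was left out. Scaling by library size alone moved the median of all genes from -0.02 to -0.16. If counts are not divided by exon length, the receptor shares become 20.32% for NOTCH2 and 72.83% for NOTCH3 in shControl, and 20.46% for NOTCH1, 74.46% for NOTCH2, 4.97% for NOTCH3 and 0.1032% for NOTCH4 in shCK5, with the same leading receptor. Same-numbered libraries did not deviate together (correlations -0.00606, 0.00752 and -0.0033); with a replicate block 9 of the 10 Notch genes, 48 of the other pathway genes and 15926 of all genes passed, and DLL4 did not (log2 fold change -0.97, adjusted p = 0.0875). Depth limits the values of NOTCH4, DLL1, HEY1 and HEY2, each with at most 164 counts per group.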

Other observations

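Some pathway genes had counts far below what other members of their complexes showed. SNW1, a cofactor of RBPJ, was listed at 0 in all 6 libraries, and HES6 and DLK1 were too. PSENEN had 39 counts in shControl and 21 in shCK5, whereas NCSTN, a subunit of the same gamma-secretase complex, had 3670, 3542 and 3383 counts in the shControl libraries. In GENCODE v29, 56.5% of the exon bases of PSENEN and 4.97% of those of SNW1 are shared with other genes, and none of those of HES6. A value of 0 was therefore not read as lack of expression.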
